A study of Mus musculus with 12 samples.

Results

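The proteasome genes described here are 46 of the 37542 genes in the usable upper part of a read count table from mouse bone-marrow-derived macrophages. They are the genes whose symbol begins with Psma, Psmb, Psmc, Psmd, Psme, Psmf or Psmg followed by a digit and that had at least 60 reads over the 12 libraries. Pseudogene symbols and the 3 inducible catalytic subunits Psmb8, Psmb9 and Psmb10 were left out. All 46 passed the filter on low counts. They fall into 8 alpha and 7 beta subunits of the 20S core, 6 ATPases and 11 non-ATPase subunits of the 19S cap, 5 activators or inhibitors, 7 assembly chaperones and 2 genes outside these roles. Of these 2, Psmc3ip encodes a partner of meiotic recombination, and Psme2b is a near-identical copy of Psme2. The member closest to the read minimum was Psma8, a testis-specific alpha subunit, with 255 reads over all libraries, followed by Psmc3ip with 668. The nearest gene below the minimum was Psmb11, the thymus-specific beta subunit, with 1 read, and 4 pseudogene symbols had 1 to 8.

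The proteasome is the barrel-shaped protease that degrades ubiquitin-tagged proteins. The 20S core carries the peptidase sites on its inner beta rings behind a gate of alpha subunits, and the 19S cap recognises, unfolds and feeds in the substrate with a ring of ATPases. Other caps, such as the PA28 rings of Psme1 and Psme2 or of Psme3, open the same gate without ubiquitin. In macrophages the proteasome degrades the IkB proteins that hold NF-kB in the cytoplasm and makes the peptides shown on MHC class I, and interferon can exchange its catalytic subunits for the inducible set.

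The macrophages came from C57BL/6N marrow kept for 7 days in medium conditioned by L929 cells, which secrete a macrophage growth factor. Alpk1 encodes the kinase that detects ADP-heptose (ADP-Hep), a bacterial sugar nucleotide. Cells lacking Alpk1 (KO) and wild-type cells (WT) received 100 µM ADP-Hep or PBS over 4 h. The groups were KO ADP-Hep, KO PBS, WT ADP-Hep and WT PBS with 3 libraries each. The labels do not tell whether replicate libraries stem from different mice or dishes, so p-values here reflect a library-to-library spread that may be only technical. Libraries held 16110654 to 31333973 reads, of which 12307826 to 25742912 lay in the rows used.

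Alpk1 stood at 21.6, 19.2 and 22.5 CPM in KO ADP-Hep libraries and 22.3, 20.3 and 21.3 CPM in KO PBS libraries, against 53.8, 55.3 and 52.3 CPM in WT ADP-Hep libraries and 30.1, 32.1 and 25.9 CPM in WT PBS libraries. CPM are counts per 1000000 reads of the rows used, scaled between libraries by TMM factors. The KO libraries were below the WT libraries under both treatments but kept Alpk1 reads; which part of the gene was deleted is not given in the sources used here, so reads outside it check nothing. All 8 macrophage markers were measured, and their summed level was 25736 to 26465 CPM in KO ADP-Hep, 26513 to 27365 in KO PBS, 28764 to 29657 in WT ADP-Hep libraries and 24782 to 26719 in those given PBS. Neutrophil markers, of which 8 of 10 were tested, summed to 169 to 179 CPM in KO ADP-Hep, 242 to 271 in KO PBS, 201 to 224 in WT ADP-Hep libraries and 206 to 227 in those given PBS. B cell markers summed to at most 17.9 CPM and dendritic cell markers to at most 2.01 CPM in any library. The 5 T and NK cell markers summed to at most 0.081 CPM, with all but Cd3d (Cd3e, Cd3g, Trbc2 and Ncr1) at 0 reads. Erythroid markers summed to at most 0.820 CPM, mast cell markers to 1.29 and fibroblast and stroma markers to 2.34. The part of these shifts in the results below was not tested. These are bulk libraries, so fewer cells of a type and less RNA per cell cannot be told apart.

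The promoters of Psmd10, the member that rose most, and of Psmb6 and Psmb5, catalytic beta subunits that rose, are shown because they carry letters known as binding motifs of factors that act on proteasome genes. Each is the RefSeq window on GRCm38.p6 of 250 bases before and 50 bases after the gene's start, 5′ to 3′ on the gene's strand, with the motif in capitals. The Psmd10 window, chrX:140956662-140956961 on the minus strand, marks CCAAT or its reverse complement ATTGG, the box bound by NF-Y. The Psmb6 window, chr11:70525107-70525406 on the plus strand, and the Psmb5 window, chr14:54617946-54618245 on the minus strand, mark TGACNNNGC, the core of the antioxidant response element bound by NFE2L1 and NFE2L2.
Psmd10: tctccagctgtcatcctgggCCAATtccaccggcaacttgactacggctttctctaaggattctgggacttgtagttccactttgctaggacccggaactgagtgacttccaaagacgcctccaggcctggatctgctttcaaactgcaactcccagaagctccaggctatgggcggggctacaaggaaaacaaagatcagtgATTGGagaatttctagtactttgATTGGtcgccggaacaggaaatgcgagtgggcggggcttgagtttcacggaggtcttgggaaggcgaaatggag
Psmb6: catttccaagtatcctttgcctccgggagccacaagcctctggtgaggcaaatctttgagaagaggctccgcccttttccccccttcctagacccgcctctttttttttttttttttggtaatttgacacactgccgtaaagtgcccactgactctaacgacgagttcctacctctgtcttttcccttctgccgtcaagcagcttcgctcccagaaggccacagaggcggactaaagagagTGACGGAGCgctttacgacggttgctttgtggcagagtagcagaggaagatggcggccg
Psmb5: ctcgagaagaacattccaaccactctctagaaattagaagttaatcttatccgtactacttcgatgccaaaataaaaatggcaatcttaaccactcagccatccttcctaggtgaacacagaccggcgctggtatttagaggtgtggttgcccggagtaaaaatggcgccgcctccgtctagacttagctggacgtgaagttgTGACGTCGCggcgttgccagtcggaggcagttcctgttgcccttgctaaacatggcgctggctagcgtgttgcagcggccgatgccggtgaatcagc
NFE2L1 is known in mammalian cells as the factor that raises proteasome gene transcription when proteasome activity falls short. Counted from the RefSeq start site of its window, the Psmb6 match ended directly before that site, and the Psmb5 match began 47 bases before its own. The gene coordinates given below come from another annotation, which starts these genes at other positions. Of the 46 genes, 38 matched the promoter table, with 41 windows. Searched on both strands, TGACNNNGC was in 14.6% of the member windows and 12.4% of all 32851 windows, and 6 members held it, namely Psmb5, Psmb6, Psmc6, Psmd9, Psmd12 and Psme4. CCAAT was in 31.7% of the member windows and 37.4% of all windows. The interferon-stimulated response element, written as a pair of TTTC with 2 free bases between them, was in 12.2% of the member windows and 3.44% of all windows, in Psmb3, Psmd4, Psmd9, Psme1 and Psmg4. The NF-kB letters, GGG and TTTCC with 2 free bases between them, were in 0 member windows and in 1.63% of all windows. These are matches of letters and were not tested as binding sites.

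ADP-Hep raised most proteasome genes of WT macrophages by a modest amount. Of the 46 genes, 39 rose and 0 fell in WT ADP-Hep against WT PBS cells (edgeR quasi-likelihood test, Benjamini-Hochberg adjusted p under 0.05 over all 12261 genes tested), where 31.9% of all genes rose and 31.6% fell. At an unadjusted p under 0.05 the counts were the same, 39 and 0. DESeq2 called 37 members higher and 0 lower, beside 3718 and 3488 of all genes. Shares of all genes at an unadjusted p are not given here or below. The median log2 fold change of the 46 genes was 0.39, a fold of 1.31, against -0.01 for all genes tested, and the values ran from -0.24 to 1.34. All 3 WT ADP-Hep libraries were above all 3 WT PBS libraries for 39 of the 46 genes, as for 32.7% of all genes. Of the 39, 33 had a fold of at least 1.2, 7 of at least 1.5 and 2 of at least 2. With library totals as the only scaling, the median of all genes moved to -0.12 and that of the 46 genes to 0.28. Of the 46 genes, 33 then rose and 1, Psmg4, fell, beside 2990 and 4927 of all genes. The gap between both medians was 0.40 with either scaling.

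**Figure D1:**
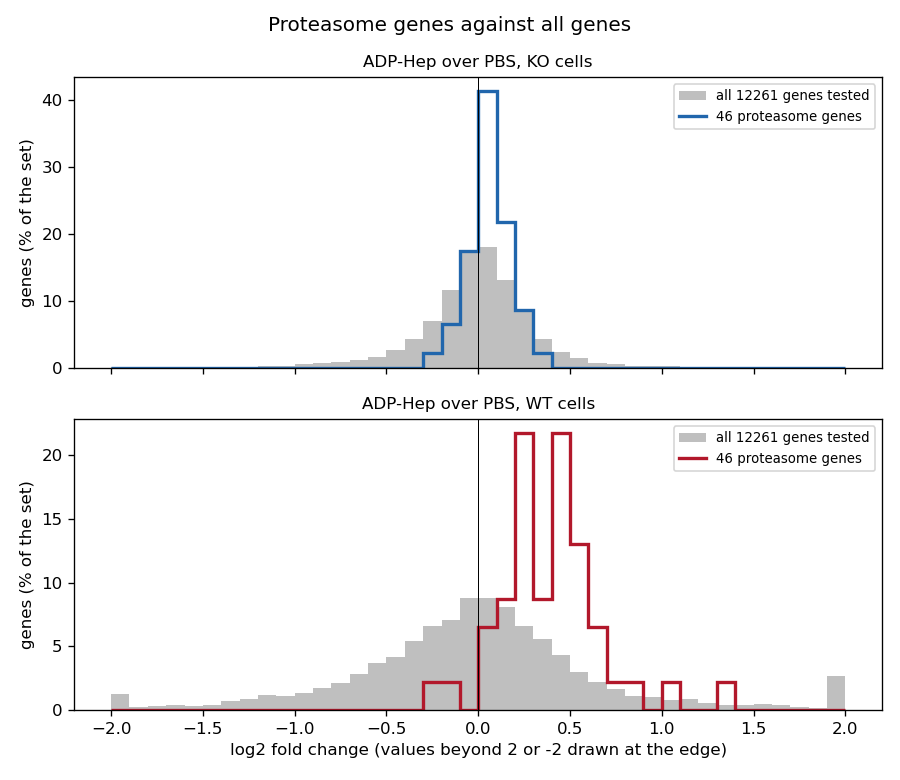
Log2 fold change of ADP-Hep over PBS (horizontal axis) against the percentage of genes in each step of 0.1 (vertical axis), for KO cells above and WT cells below; grey shows all 12261 genes tested and the outline the 46 proteasome genes. The proteasome genes centre on 0.08 in KO cells and on 0.39 in WT cells, while all genes centre on 0.01 and -0.01.

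In the 20S core, 7 of 8 alpha and 7 of 7 beta subunits rose in WT ADP-Hep cells. Psma6, an alpha subunit of the gate ring at chr12:55384222-55418454, rose most among them, with 184, 179 and 175 CPM in WT ADP-Hep libraries, against 98.7, 93.3 and 108 CPM in WT PBS libraries. The 2 groups of libraries were far apart, and the log2 fold change was 0.84 ± 0.05 (adjusted p 2.21e-13; the SE is approximate, the size of the change over the root of F). The beta subunits that carry the peptidase sites are Psmb5 (chymotrypsin-like, chr14:54614119-54618022), Psmb6 (caspase-like, chr11:70525367-70527858) and Psmb7 (trypsin-like, chr2:38588036-38644087). Psmb5 had 39.4, 44.2 and 47.2 CPM in WT ADP-Hep libraries, against 28.8, 31.4 and 27.4 CPM in WT PBS libraries. Psmb6 had 197, 209.7 and 212 CPM in WT ADP-Hep libraries, against 141, 142 and 138 CPM in WT PBS libraries. Psmb7 had 74.2, 78.3 and 77.8 CPM in WT ADP-Hep libraries, against 64.6, 64.1 and 62.5 CPM in WT PBS libraries. All 3 rose without overlap of libraries, Psmb5 by 0.57 ± 0.07 (adjusted p 7.92e-08), Psmb6 by 0.55 ± 0.05 (adjusted p 1.26e-10) and Psmb7 by 0.27 ± 0.05 (adjusted p 3.52e-05). The alpha subunits other than Psma6 and Psma8 had log2 fold changes of 0.26 (Psma1) to 0.51 (Psma4), and the structural beta subunits of 0.15 (Psmb1) to 0.41 (Psmb3). The libraries of Psmb1 overlapped, and its call was lost with library totals as the only scaling and without WT ADP-Hep replicate 1, WT ADP-Hep replicate 2 or WT PBS replicate 2. Psma8 was near the detection limit of the table, with 1.02, 1.03 and 1.55 CPM in WT ADP-Hep libraries, against 1.37, 1.21 and 1.44 CPM in WT PBS libraries, and its log2 fold change of -0.24 ± 0.28 did not pass the test (adjusted p 0.465).

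In the 19S cap, all 6 ATPases and 10 of 11 non-ATPase subunits rose. Psmc5 (chr11:106256154-106263120) is a subunit of the ATPase ring that unfolds substrates. It had 93.7, 94.4 and 103 CPM in WT ADP-Hep libraries, against 65.8, 63.9 and 59.4 CPM in WT PBS libraries, a log2 fold change of 0.62 ± 0.05 (adjusted p 3.00e-10). The other ATPases rose by 0.22 (Psmc3) to 0.44 (Psmc2). Psmd7 (chr8:107580381-107588464) pairs with the deubiquitinase Psmd14 in the lid, where ubiquitin is cut off the substrate. It had 126, 131 and 132 CPM in WT ADP-Hep libraries, against 77.9, 75.3 and 76.8 CPM in WT PBS libraries, and the log2 fold change was 0.76 ± 0.05 (adjusted p 1.46e-12). Psmd14 itself rose by 0.57 ± 0.05 (adjusted p 1.14e-09), and the ubiquitin receptor Psmd4 by 0.36 ± 0.05 (adjusted p 1.32e-06). The smallest changes in the cap were those of abundant subunits. Psmd2, a scaffold of the base, and Psmd8, a lid subunit, had the highest RPKM (CPM per kilobase of exon) of the 46 genes in WT PBS cells, 88.2 and 87.2, and in WT ADP-Hep cells reached 95.1 and 91.3. Psmd8 (chr7:29174188-29180701) had 268, 276 and 294 CPM in WT ADP-Hep libraries, against 268, 276 and 256 CPM in WT PBS libraries, libraries that overlap, with a log2 fold change of 0.07 ± 0.05 (adjusted p 0.223). Psmd2 changed by 0.11 ± 0.05 (adjusted p 0.0498), at the threshold, and lost its call in 14 of the 18 other settings tried. Psma6 ranked next in WT PBS cells with an RPKM of 81.1 and highest in WT ADP-Hep cells with 145; the highest levels after it in WT ADP-Hep cells were Psmb6 with 110.1 and Psme2 with 98.3.

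All 5 activators or inhibitors rose, by unequal amounts. Psme2, the beta chain of the PA28 ring, lies at chr14:55587441-55591113 near Psme1, its alpha chain, at chr14:55578123-55581529. Psme2 had 171, 171 and 178 CPM in WT ADP-Hep libraries, against 80.2, 82.0 and 82.4 CPM in WT PBS libraries. Psme1 had 95.0, 95.2 and 101 CPM in WT ADP-Hep libraries, against 82.1, 81.2 and 79.2 CPM in WT PBS libraries. Neither gene's libraries overlapped, and the log2 fold change was 1.09 ± 0.04 for Psme2 (adjusted p 4.93e-17) and 0.26 ± 0.05 for Psme1 (adjusted p 6.30e-05). Psme3 (chr11:101316213-101323537) forms the nuclear PA28 ring alone. It had 137, 145 and 151 CPM in WT ADP-Hep libraries, against 93.6, 90.0 and 89.9 CPM in WT PBS libraries, a change of 0.66 ± 0.05 (adjusted p 4.62e-12). Psme4 (chr11:30771726-30880361) encodes PA200, a large cap of the nuclear proteasome. It had 215, 218 and 202 CPM in WT ADP-Hep libraries, against 179, 177 and 192 CPM in WT PBS libraries, a change of 0.21 ± 0.05 (adjusted p 6.64e-04). Psmf1 (chr2:151715812-151744186) encodes PI31, which binds the core and was originally described as an inhibitor. It had 35.5, 39.3 and 35.1 CPM in WT ADP-Hep libraries, against 30.4, 33.8 and 30.6 CPM in WT PBS libraries, a change of 0.22 ± 0.07 (adjusted p 0.00531). With library totals as the only scaling the changes of Psme4 and Psmf1 were 0.10 and 0.11 and neither passed the test, and that of Psmf1 was 0.17 without WT ADP-Hep replicate 2, where it also did not pass.

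Among the assembly chaperones, 4 of 7 rose. Psmd10, also called gankyrin, helps to place the ATPase ring and lies at chrX:140948429-140956728. It had 68.1, 68.0 and 70.3 CPM in WT ADP-Hep libraries, against 25.3, 28.6 and 27.3 CPM in WT PBS libraries. The WT ADP-Hep libraries agree within a few CPM and lie far above the others, and its log2 fold change of 1.34 ± 0.07, a fold of 2.54, was the largest of the 46 genes (adjusted p 2.87e-15). Psmd5, another chaperone of the base, rose by 0.68 ± 0.06 (adjusted p 6.11e-10), Psmg3, a chaperone of the alpha ring, by 0.36 ± 0.15 (adjusted p 0.0432) and Psmd9, a chaperone of the base, by 0.17 ± 0.07 (adjusted p 0.0258). The calls of Psmd9 and Psmg3 were lost with DESeq2, with no filter on low counts, with library totals as the only scaling, and without WT PBS replicate 1, WT PBS replicate 2 or WT ADP-Hep replicate 3; that of Psmg3 was also lost without WT ADP-Hep replicate 2, WT PBS replicate 3 or KO ADP-Hep replicate 1. The other alpha ring chaperones did not pass the test, with 0.14 for Psmg1, 0.02 ± 0.09 for Psmg2 (adjusted p 0.895) and -0.13 ± 0.10 for Psmg4 (adjusted p 0.256). Psmg2 had 13.1, 13.3 and 13.04 CPM in WT ADP-Hep libraries, against 12.05, 12.2 and 14.4 CPM in WT PBS libraries. Psmg4 had 10.6, 10.1 and 11.7 CPM in WT ADP-Hep libraries, against 11.4, 11.7 and 11.98 CPM in WT PBS libraries. The libraries of both genes overlapped. Of the 7 members not called, Psmd8 alone was abundant; Psma8, Psmc3ip, Psme2b, Psmg1, Psmg2 and Psmg4 were at 14.6 CPM or less in every library.

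**Figure D2:**
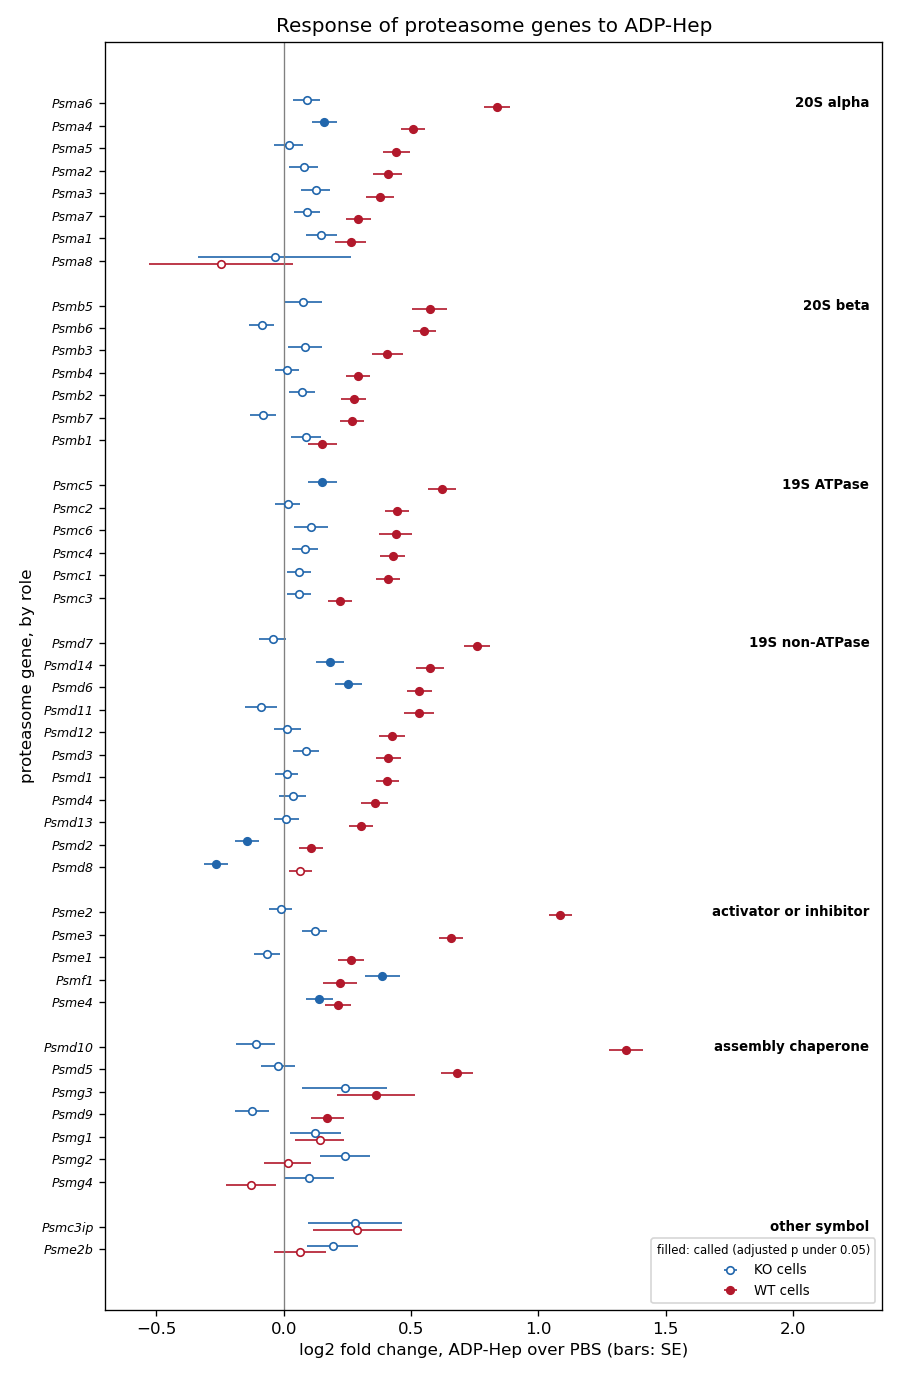
Log2 fold change of ADP-Hep over PBS (horizontal axis, bars are the approximate SE) of each of the 46 genes (vertical axis, grouped by role), with KO cells in blue and WT cells in red; filled points passed the adjusted p of 0.05. The 39 filled WT points run from 0.11 to 1.34, and the 8 filled KO points from -0.27 to 0.39.

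In KO cells few proteasome genes passed the test for a change under ADP-Hep. Of the 46 genes, 6 rose and 2 fell in KO ADP-Hep against KO PBS cells, where 13.7% of all genes rose and 15.3% fell, so the share that rose was near that of all genes. At an unadjusted p under 0.05 the counts were 10 and 2. With DESeq2 they were 5 and 2, beside 1310 and 1693 of all genes. The median log2 fold change was 0.08, against 0.01 for all genes. The change was positive for 34 of the 46 genes and negative for 12, beside 6237 and 6021 of all genes. The KO ADP-Hep libraries were all above the KO PBS libraries for 12 genes (26.1%) and all below for 4 (8.70%). For all genes these shares were 21.1% and 20.9%. No member reached a fold of 1.5. The count of 6 depended on single libraries: it was 2 without KO ADP-Hep replicate 1, 3 without KO PBS replicate 2 and 4 without KO PBS replicate 3, WT PBS replicate 2, WT ADP-Hep replicate 2 or the KO ADP-Hep library that carries no number. With library totals as the only scaling, 12 rose and 1 fell, beside 2360 and 1483 of all genes.

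The largest KO increase was that of Psmf1, the PI31 gene, with 39.7, 43.8 and 42.1 CPM in KO ADP-Hep libraries, against 31.8, 33.6 and 29.9 CPM in KO PBS libraries. The libraries did not overlap, and the log2 fold change was 0.39 ± 0.07 (adjusted p 8.44e-05). Psmd6, a lid subunit at chr14:14112174-14120984, had 75.9, 69.5 and 76.9 CPM in KO ADP-Hep libraries, against 60.2, 62.4 and 64.5 CPM in KO PBS libraries, a change of 0.25 ± 0.05 (adjusted p 5.84e-04). These 2 increases held in all 18 other settings tried. Psma4, an alpha subunit at chr9:54950790-54958030, had 84.8, 78.6 and 81.1 CPM in KO ADP-Hep libraries, against 74.6, 72.8 and 71.9 CPM in KO PBS libraries, a change of 0.16 ± 0.05 (adjusted p 0.015). Psmc5 had 66.7, 70.9 and 65.3 CPM in KO ADP-Hep libraries, against 62.3, 58.4 and 61.8 CPM in KO PBS libraries, a change of 0.15 ± 0.06 that lay at the threshold (adjusted p 0.0495). Psmd14 rose by 0.18 (adjusted p 0.0172) and Psme4 by 0.14 (adjusted p 0.0408). The calls of Psma4, Psmc5, Psmd14 and Psme4 were all lost without KO ADP-Hep replicate 1, and that of Psmc5 in 13 and that of Psme4 in 7 of the 18 other settings. Psmd8 fell: it had 208, 222 and 213 CPM in KO ADP-Hep libraries, against 261, 262 and 251 CPM in KO PBS libraries, a change of -0.27 ± 0.05 (adjusted p 9.61e-05) that held in all 18 settings. Psmd2 also fell, with 302, 316 and 304 CPM in KO ADP-Hep libraries, against 331, 342 and 345 CPM in KO PBS libraries and a change of -0.14 ± 0.05 (adjusted p 0.0224); this call was lost without KO PBS replicate 2, KO PBS replicate 3, KO ADP-Hep replicate 1 or the KO ADP-Hep library without a number, and with library totals as the only scaling. The summed neutrophil markers were also lower in KO ADP-Hep than in KO PBS libraries, by the values given above, and their part in these decreases was not tested.

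The 6 members with the largest log2 fold changes in WT cells, Psmd10, Psme2, Psma6, Psmd7, Psmd5 and Psme3, did not pass the test in KO cells. The next in rank, Psmc5 and Psmd14, were called in KO cells, with the smaller changes of 0.15 and 0.18 given above. Psmd10 had 25.0, 20.97 and 25.7 CPM in KO ADP-Hep libraries, against 24.0, 26.7 and 27.6 CPM in KO PBS libraries, a change of -0.11 ± 0.08 (adjusted p 0.306). Psme2 had 86.7, 84.8 and 87.1 CPM in KO ADP-Hep libraries, against 88.0, 87.5 and 85.3 CPM in KO PBS libraries, a change of -0.01 ± 0.05 (adjusted p 0.878). Both sets of libraries overlapped. Psma6 had 105, 98.6 and 103 CPM in KO ADP-Hep libraries, against 96.3, 98.3 and 93.7 CPM in KO PBS libraries, which did not overlap but differed by only 0.09 ± 0.05 (adjusted p 0.218). Psmd7 had 73.1, 66.4 and 75.8 CPM in KO ADP-Hep libraries, against 75.2, 71.3 and 76.3 CPM in KO PBS libraries, a change of -0.04 ± 0.05 (adjusted p 0.593). Psme3 changed by 0.12 ± 0.05 (adjusted p 0.064) and Psme1 by -0.06 ± 0.05 (adjusted p 0.373). Psmb5 changed by 0.08, Psmb6 by -0.09 and Psmb7 by -0.08, none past the test. Psmd5, the most abundant chaperone, had 43.4, 45.2 and 48.2 CPM in KO ADP-Hep libraries, against 47.0, 41.6 and 50.9 CPM in KO PBS libraries, a change of -0.02 ± 0.07 (adjusted p 0.84).

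**Figure D3:**
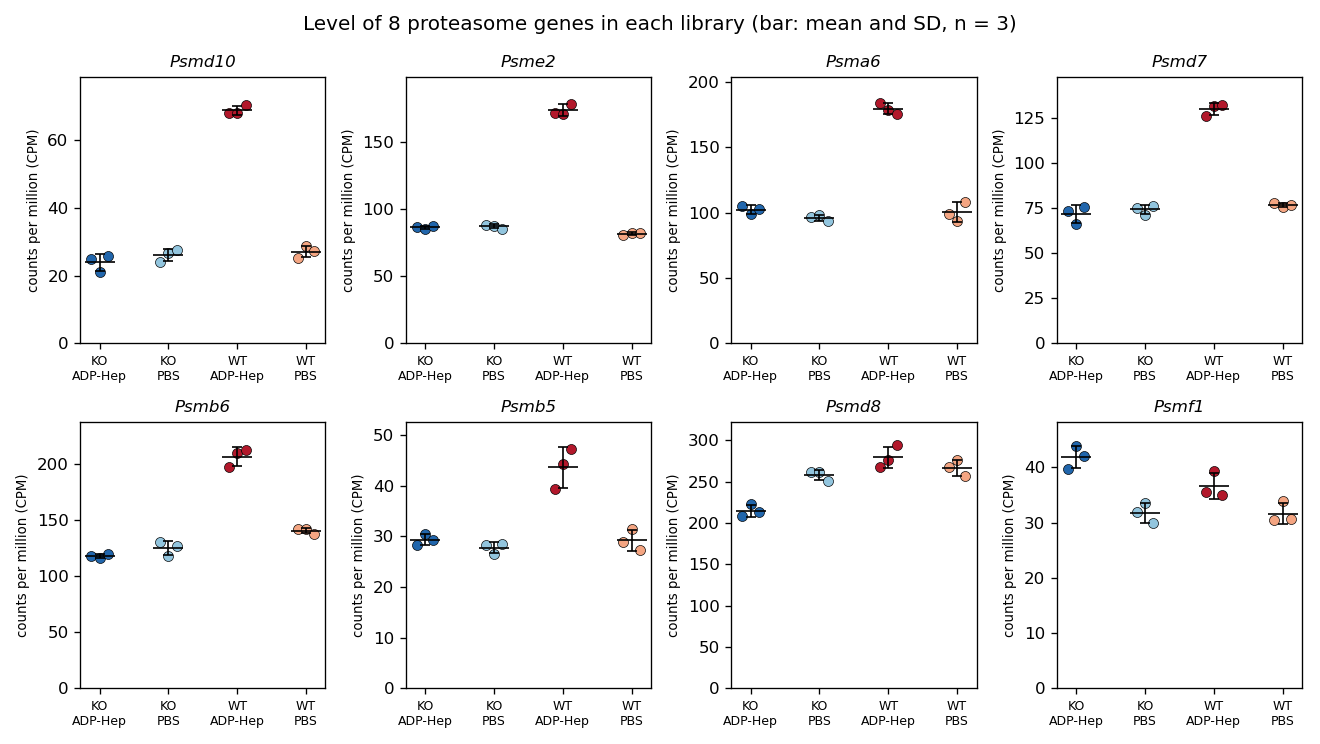
CPM (vertical axis) of 8 proteasome genes in each library, with the groups KO ADP-Hep, KO PBS, WT ADP-Hep and WT PBS along the horizontal axis; points are libraries, and bars the mean and SD of 3. For Psmd10, Psme2, Psma6, Psmd7, Psmb6 and Psmb5 the WT ADP-Hep libraries stand above all others, Psmd8 is lowest in KO ADP-Hep libraries, and Psmf1 is higher in both ADP-Hep groups than in their PBS groups.

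The test of the difference between both responses asks whether ADP-Hep changed a gene unequally in the 2 genotypes. Whether Alpk1 itself or something else that set the WT and KO libraries apart accounts for a difference was not tested. The difference is given as the WT response minus the KO response, so a positive value means a more positive change in WT cells. Of the 46 genes, 34 had a more positive response in WT cells and 0 a more negative one, where 24.6% of all genes had a more positive and 24.9% a more negative response in WT cells. The unadjusted counts were 35 and 0, and DESeq2 gave 34 and 0, beside 2877 and 2563 of all genes with DESeq2. The median difference was 0.33, against -0.01 for all genes. All 11 non-ATPase subunits were called, as were 5 of 6 ATPases (not Psmc3), 6 of 8 alpha subunits (not Psma1 and Psma8), 6 of 7 beta subunits (not Psmb1), 3 of 5 activators or inhibitors and 3 of 7 chaperones. With library totals as the only scaling, which moved the median of all genes to -0.16, 22 were higher and 3, Psmf1, Psmg2 and Psmg4, lower. Of all genes, 2020 were higher and 4507 lower with that scaling. The 22 higher calls held in all 17 other settings tried.

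Psmd10 differed most, by 1.45 ± 0.10 (adjusted p 9.13e-12), followed by Psme2 with 1.10 ± 0.06 (adjusted p 2.42e-13) and Psmd7 with 0.80 ± 0.07 (adjusted p 1.63e-09). The largest differences of the other roles were 0.75 ± 0.07 for Psma6 (adjusted p 5.47e-09), 0.64 ± 0.07 for Psmb6 (adjusted p 1.62e-08) and 0.47 ± 0.08 for Psmc5 (adjusted p 2.40e-05). In the activators, Psme3 differed by 0.54 ± 0.07 (adjusted p 3.33e-07) and Psme1 by 0.33 ± 0.07 (adjusted p 4.89e-04). Psme4, with 0.07 ± 0.07 (adjusted p 0.415), and Psmf1, with -0.17 ± 0.09 (adjusted p 0.152), did not pass; both rose with and without Alpk1. Psmd8, which fell in KO cells and was not called in WT cells, differed by 0.33 ± 0.07 (adjusted p 1.63e-04). The lowest values were -0.23 ± 0.14 for Psmg4 (adjusted p 0.18), -0.22 ± 0.13 for Psmg2 (adjusted p 0.175) and -0.21 ± 0.41 for Psma8 (adjusted p 0.703).

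Under PBS the share of proteasome genes called different between KO and WT cells was near or below that of all genes. In KO PBS against WT PBS cells 0 of the 46 genes were higher and 2 lower, where 5.57% of all genes were higher and 5.82% lower. At an unadjusted p under 0.05 the counts were 2 and 6, and DESeq2 called 0 and 1. The KO PBS libraries were all above the WT PBS libraries for 3 genes (6.52%) and all below for 10 (21.7%). For all genes these shares were 13.2% and 14.5%, so the share below was larger among the proteasome genes. The median log2 difference was -0.05, against 0.00 for all genes. It was negative for 35 of the 46 genes and positive for 11, beside 6084 and 6176 of all genes. Psmb6 had 130.4, 118 and 127 CPM in KO PBS libraries, against 141, 142 and 138 CPM in WT PBS libraries, a difference of -0.17 ± 0.05 (adjusted p 0.0232). Psma4 had 74.6, 72.8 and 71.9 CPM in KO PBS libraries, against 80.4, 80.2 and 83.0 CPM in WT PBS libraries, a difference of -0.15 ± 0.05 (adjusted p 0.0433). Neither call was firm: 0 genes were lower without WT PBS replicate 1, WT PBS replicate 2 or KO PBS replicate 2, and 1 without WT PBS replicate 3, WT ADP-Hep replicate 2, KO PBS replicate 1, KO PBS replicate 3, KO ADP-Hep replicate 1 or the KO ADP-Hep library without a number. The activators and inhibitor differed by -0.08 (Psme3) to 0.09 (Psme2), none past the test.

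Under ADP-Hep most proteasome genes were lower without Alpk1. In KO ADP-Hep against WT ADP-Hep cells 3 of the 46 genes were higher and 37 lower, where 32.8% of all genes were higher and 32% lower. DESeq2 called 2 members higher and 37 lower, beside 3548 and 3783 of all genes. The KO ADP-Hep libraries were all below the WT ADP-Hep libraries for 37 genes and all above for 2, as for 33.7% and 34.9% of all genes, and the median log2 difference was -0.39, against 0.01 for all genes. With library totals as the only scaling, which moved the median of all genes to 0.17, 4 were higher and 31 lower. Of all genes, 5609 were higher and 2722 lower with that scaling. This comparison uses the same WT ADP-Hep libraries as the WT response, so both counts share them. The lower genes were all 6 ATPases, all 11 non-ATPase subunits, all 7 beta subunits, 7 of 8 alpha subunits, 4 of 5 activators or inhibitors and the chaperones Psmd5 and Psmd10. Psmd10 averaged 23.9 ± 2.57 CPM in KO ADP-Hep and 68.8 ± 1.30 CPM in WT ADP-Hep cells (SD, n = 3 each), a log2 difference of -1.51 ± 0.07 in edgeR (adjusted p 3.06e-16). Psme2 averaged 86.2 ± 1.197 CPM in KO ADP-Hep and 173 ± 4.18 CPM in WT ADP-Hep cells, a difference of -1.01 ± 0.04 (adjusted p 2.05e-16). Psmd7, Psma6, Psmb6 and Psmc5 differed by -0.85, -0.81, -0.81 and -0.52 (log2). The activators Psme3, Psme1 and Psme4 differed by -0.62, -0.25 and -0.12, and the call of Psme4 (adjusted p 0.0402) was lost without WT ADP-Hep replicate 1, WT ADP-Hep replicate 2, KO ADP-Hep replicate 1 or KO ADP-Hep replicate 3, with no filter on low counts and with library totals, where its sign changed.

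The 3 genes that were higher in KO ADP-Hep cells were Psmf1, Psmg4 and Psme2b. Psmf1 had 39.7, 43.8 and 42.1 CPM in KO ADP-Hep libraries, against 35.5, 39.3 and 35.1 CPM in WT ADP-Hep libraries, a difference of 0.18 ± 0.06 (adjusted p 0.0158) that did not pass without WT ADP-Hep replicate 1 or KO ADP-Hep replicate 3. Psmg4 had 13.6, 11.2 and 12.4 CPM in KO ADP-Hep libraries, against 10.6, 10.1 and 11.7 CPM in WT ADP-Hep libraries, which overlap, a difference of 0.23 ± 0.10 (adjusted p 0.0392) that did not pass with DESeq2, with no filter on low counts or without WT ADP-Hep replicate 1, WT ADP-Hep replicate 2, KO ADP-Hep replicate 1 or the KO ADP-Hep library without a number. Without WT ADP-Hep replicate 1 the count of higher genes was 1. Psme2b (chr11:48945354-48946190) had 10.8, 11.9 and 10.2 CPM in KO ADP-Hep libraries, against 7.74, 9.10 and 8.89 CPM in WT ADP-Hep libraries, a difference of 0.35 ± 0.10 (adjusted p 0.00267). Its values are uncertain. The transcript was identical to a Psme2 transcript at 789 of 794 aligned bases, 99.4%, and the gene lies wholly within Gm12185 on the same strand. Reads that match several of these genes cannot be told apart by these counts, a limit that also falls on Psme2. The counts of both entries did differ, with Psme2 at -1.01 and Psme2b at 0.35 in KO ADP-Hep against WT ADP-Hep cells. In WT cells Psme2b had 7.74, 9.10 and 8.89 CPM in WT ADP-Hep libraries, against 8.21, 8.12 and 8.11 CPM in WT PBS libraries, a change of 0.07 ± 0.10 (adjusted p 0.595), and in KO cells the change was 0.19 ± 0.10 (adjusted p 0.155). Several other members overlap a neighbouring gene, such as Psma2, which shares 8943 bases with AW209491 on the same strand, and Psmd9, which shares 10921 bases with Hpd on the opposite strand; how the counting treated such reads is not given in the sources used here.

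Summed over members, the TMM-scaled level of proteasome genes was higher in the WT ADP-Hep than in the WT PBS libraries. The TMM factors were 0.926 to 0.954 in WT ADP-Hep and 1.01 in WT PBS libraries. The sums and ratios below include this scaling and are not parts of the reads of a library. The 46 genes together held 3809 ± 83.2 CPM in KO ADP-Hep and 3749 ± 31.0 CPM in KO PBS cells, and 5119 ± 96.0 CPM in WT ADP-Hep and 3893 ± 73.6 CPM in WT PBS cells (SD, n = 3 each). The ratio of ADP-Hep to PBS was 1.02 in KO cells and 1.31 in WT cells. By role the ratio in WT cells was 1.55 for the chaperones, 1.42 for the activators or inhibitors, 1.37 for the alpha subunits, 1.33 for the ATPases, 1.27 for the beta subunits and 1.25 for the non-ATPase subunits. In KO cells it was 0.99 for the chaperones, 1.07 for the activators or inhibitors, 1.08 for the alpha subunits, 1.05 for the ATPases, 1.01 for the beta subunits and 0.96 for the non-ATPase subunits. In each of these 6 roles the WT ADP-Hep libraries were all above the WT PBS libraries. The sums follow the abundant genes: the chaperone sum was carried by Psmd10 and Psmd5.

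**Figure D4:**
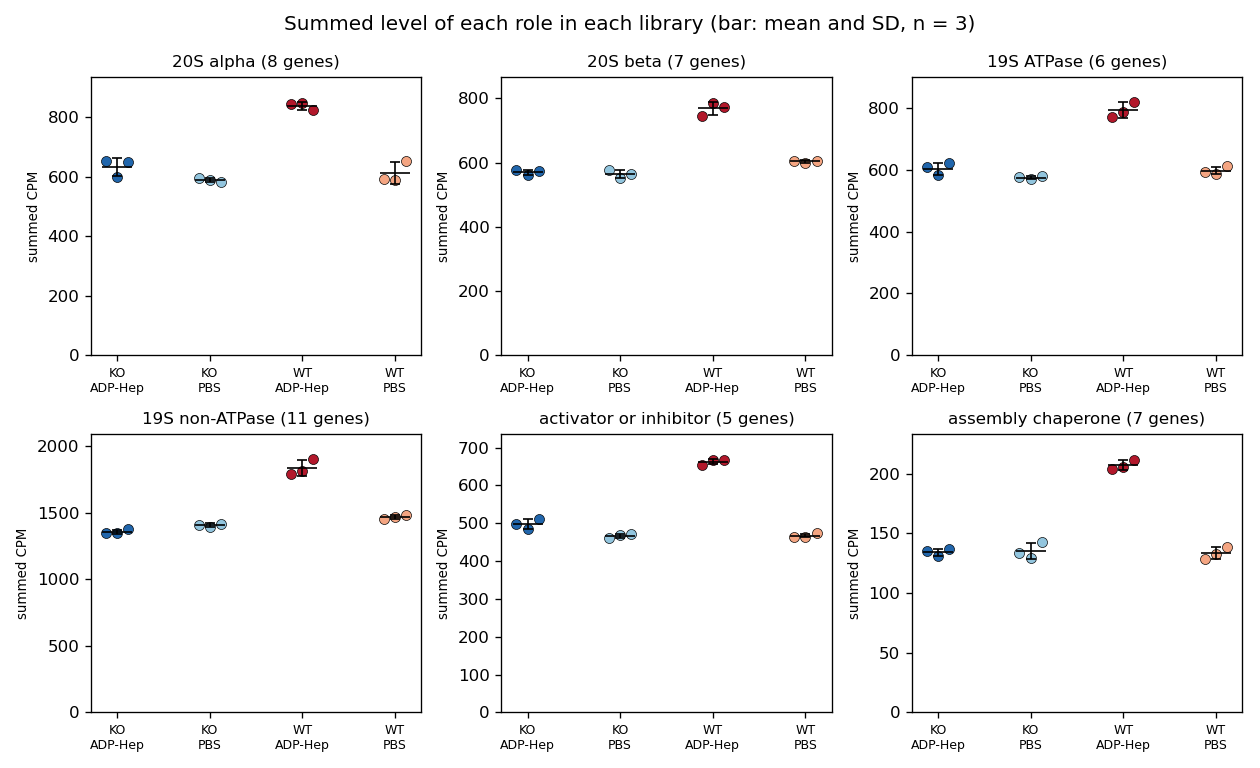
CPM summed over the genes of each role (vertical axis) in each library, with the groups KO ADP-Hep, KO PBS, WT ADP-Hep and WT PBS along the horizontal axis; points are libraries, and bars the mean and SD of 3. In all 6 roles the WT ADP-Hep libraries lie above every other library.

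The balance between partner subunits was read from ratios of read counts within a library, which need no scaling between libraries. Psme2 over Psme1 was 1.06 in KO ADP-Hep and 1.02 in KO PBS cells, and 1.78 in WT ADP-Hep and 1.01 in WT PBS cells. The WT groups did not overlap, with an exact two-sided permutation p of 0.1, the smallest that 3 against 3 libraries allow, and 0.2 after adjustment over the 8 ratio comparisons. The inducible subunits, which replace Psmb5, Psmb6 and Psmb7 in the immunoproteasome, also rose in WT ADP-Hep cells, Psmb8 by 0.51 ± 0.06 (adjusted p 3.10e-08), Psmb9 by 0.42 ± 0.07 (adjusted p 2.32e-05) and Psmb10 by 0.73 ± 0.06 (adjusted p 4.12e-11). In KO ADP-Hep cells Psmb8 rose by 0.18 ± 0.06 (adjusted p 0.0212) and Psmb9 by 0.37 ± 0.07 (adjusted p 4.08e-04), and Psmb10 changed by 0.15 ± 0.06 (adjusted p 0.0592). The difference between responses passed the test for Psmb8 with 0.32 (adjusted p 0.0021) and Psmb10 with 0.58 (adjusted p 2.88e-06), but not for Psmb9 with 0.05 ± 0.11 (adjusted p 0.747).

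Set against their constitutive partners, the inducible subunits gave unlike ratios. Psmb10 over Psmb7 was 0.865 in KO ADP-Hep and 0.732 in KO PBS cells, and 0.927 in WT ADP-Hep and 0.671 in WT PBS cells, without overlap in either genotype. Psmb9 over Psmb6 was 0.291 in KO ADP-Hep and 0.211 in KO PBS cells, which did not overlap, and 0.152 in WT ADP-Hep and 0.168 in WT PBS cells, which did. The exact permutation p was 0.1 for each of these 3 comparisons without overlap (0.2 adjusted). Psmb8 over Psmb5 was 2.14 in KO ADP-Hep and 1.99 in KO PBS cells, and 1.64 in WT ADP-Hep and 1.72 in WT PBS cells, and the libraries overlapped in both genotypes (exact permutation p of 0.3 in KO and 0.5 in WT cells). The exact permutation test cannot pass 0.05 with 3 libraries a group.

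**Figure D5:**
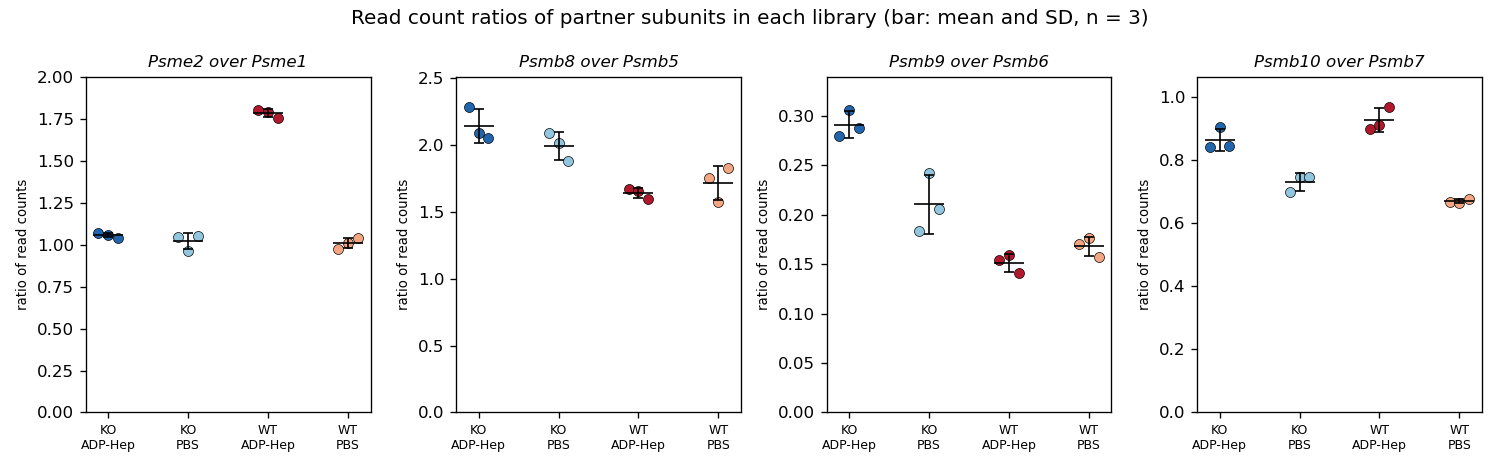
Ratio of read counts of partner subunits (vertical axis) in each library, with the groups KO ADP-Hep, KO PBS, WT ADP-Hep and WT PBS along the horizontal axis; points are libraries, and bars the mean and SD of 3. Psme2 over Psme1 is 1.76 to 1.80 in WT ADP-Hep libraries and 0.965 to 1.07 in all others, while Psmb8 over Psmb5 overlaps between ADP-Hep and PBS in both genotypes.

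Of 30 other genes of proteasome assembly, control and substrate delivery, 29 were tested and 1, Paaf1, was not in the rows used. In WT ADP-Hep cells 17 rose and 3 fell, where 31.9% of all genes rose and 31.6% fell, with a median log2 fold change of 0.19. In KO ADP-Hep cells 2 rose and 7 fell, where 13.7% of all genes rose and 15.3% fell, with a median of -0.02. The difference between responses was called higher for 14 and lower for 1, beside 24.6% and 24.9% of all genes. KO ADP-Hep cells were higher than WT ADP-Hep cells for 2 and lower for 16, beside 32.8% and 32% of all genes. The smallest p-values in WT cells were those of Ddi2, Zfand2a, Nfe2l1 and Zfand5. Nfe2l1, which encodes the factor whose letters are marked in the Psmb6 and Psmb5 promoters, averaged 481 ± 34.2 CPM in WT ADP-Hep and 301 ± 14.4 CPM in WT PBS cells, a log2 fold change of 0.68 ± 0.05 in edgeR (adjusted p 1.22e-11). In KO cells it averaged 249.6 ± 6.92 CPM under ADP-Hep and 317 ± 11.2 CPM under PBS, a fall of 0.35 (log2). Ddi2, the protease that cuts NFE2L1 into its active form in human cells, fell to 105 ± 4.21 CPM in WT ADP-Hep cells, against 204 ± 4.59 CPM in WT PBS cells, a change of -0.96 ± 0.05 (adjusted p 1.08e-15). In KO cells Ddi2 fell by 0.24 (log2, adjusted p 1.81e-04), and the difference between responses was -0.72 (adjusted p 6.64e-10). Zfand2a, a proteasome-associated zinc finger gene induced by arsenite, fell by 1.05 in KO and by 1.22 in WT cells (log2), and its difference between responses was not called. Zfand5, an activator that binds the 26S proteasome, fell by 0.21 (log2) in KO ADP-Hep cells (adjusted p 0.0019) and rose by 0.61 ± 0.05 in WT ADP-Hep cells (adjusted p 3.27e-11).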

How the data were processed

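The values deposited by the authors are raw counts per gene, whole numbers in 12 libraries of 1 table. Per the labels' protocols, libraries were made with a stranded mRNA kit. The submitters' processing notes name STAR, featureCounts, RSEM, DESeq2, FastQC and Trim Galore, and the builds mm10 and hg38. No source used here gives their versions or whether counting used strand. All 37542 identifiers used were found in GENCODE mouse release 21 (mm10), which gave the coordinates and exon lengths. Along the table, mean log2(count + 1) of KO and WT libraries correlated at 0.996 in the rows used and 0.047 in the 19206 rows below, which rose to 0.973 with KO values shifted 1 row upward, and those lower rows were left out. The last row used lies 100 rows above the point where the shift begins. Rows used held 71.3 to 85.2% of each library's counts.

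Columns were assigned by name. For KO ADP-Hep, 1 column number matched no label, so that library has no replicate number. Same-numbered libraries did not deviate together (median correlation 0.07 over 15 pairs, lowest -0.37), so numbers were not used as pairs. Over all genes, replicates differed by more than sampling noise (chi-square per degree of freedom 1.96 to 10.5). Over the proteasome genes alone the values were lower. WT PBS replicates 1 and 2, at 0.876, differed there by no more than sampling noise, and the other pairs ran from 1.25 to 3.87.

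Tests used edgeR 4.0.16 (limma 3.58.1, R 4.3.3): TMM scaling, filterByExpr (12261 genes), 1 robust quasi-likelihood fit of 4 group means, 5 comparisons, Benjamini-Hochberg adjustment, called under 0.05. The biological coefficient of variation was 4.81%. CPM, RPKM and ratios were computed from the deposited counts. Alternatives were DESeq2 1.42.0 (Wald test), DESeq2 size factors, library totals, no filter, a replicate block, a fit of the compared groups alone, and leaving out each library. Genes named with values are the largest called change of each role and direction, or the most abundant member where none was called, the 3 highest and 3 lowest of the WT response and of the difference between responses, all activators, the catalytic subunits and up to 4 called pathway genes with the smallest p. Other members are named where a count or a lost call refers to them, after their values were seen. The members and lists were chosen with earlier results of these data known.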

Additional observations from a re-analysis of the deposited data

Results flagged for a closer look

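The response to ADP-Hep differed between genotypes for 34 of the 46 proteasome genes by the interaction test in edgeR (adjusted p under 0.05), all with the more positive response in WT cells. For some of these genes, the WT response minus the KO response was 1.45 for Psmd10, 1.10 for Psme2, 0.80 for Psmd7, 0.75 for Psma6, 0.64 for Psmb6, 0.54 for Psme3, 0.47 for Psmc5 and 0.33 for Psme1 (log2). The list is not a ranking: other called genes, such as Psmd5, Psmb5, Psmb7 and Psmd8, are left out of it. Groups of 3 libraries are too small for the test of a library far from the others.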

How the results depend on the processing

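Of the 39 genes that rose in WT ADP-Hep cells, 33 were called under each of the 18 other settings; without single libraries the count was 35 to 38, and of genes that fell 0 to 0. Library totals as the only scaling gave 1 lower gene in WT cells, 12 higher and 1 lower in KO cells, and 22 higher and 3 lower for the difference between responses, where leaving out libraries gave 32 to 35 and 0 to 0. Over all genes that scaling turned 3914 higher and 3871 lower calls in WT cells into 2990 and 4927, 1678 and 1870 in KO cells into 2360 and 1483, 3018 and 3053 for the difference into 2020 and 4507, and 4016 and 3929 in KO ADP-Hep against WT ADP-Hep into 5609 and 2722. The KO response gave 2 to 8 higher and 1 to 2 lower genes without single libraries, the fewest higher without KO ADP-Hep replicate 1. The replicate block, which leaves out the library without a number, gave 3 higher and 1 lower in KO cells and 0 lower genes in KO PBS against WT PBS cells, and moved no other count of members by over 1.5 times. That last count was 1 with no filter, with only the groups compared and with DESeq2, and 0 to 2 without single libraries. KO ADP-Hep against WT ADP-Hep gave 1 to 3 higher genes, the fewest without WT ADP-Hep replicate 1, and 34 to 37 lower genes. Some values that had not passed the test, or were small, changed sign. With library totals Psme2b and Psmg2 became -0.045 and -0.094 in WT cells, Psmd5 and Psme2 0.022 and 0.032 in KO cells, and Psme4 -0.082 for the difference and 0.035 in KO ADP-Hep against WT ADP-Hep. Without single libraries, Psmg2 ranged from -0.033 to 0.12 in WT cells, lowest without WT PBS replicate 1. Psmd5 ranged from -0.10 to 0.046 in KO cells and from -0.021 to 0.124 in KO PBS against WT PBS, and Psma8 from -0.39 to 0.052 for the difference, all 3 turning sign without KO PBS replicate 3. Psmf1 in KO PBS against WT PBS ranged from -0.030 to 0.065, lowest without KO PBS replicate 2. The causes were not tested. Of the single-gene values, 1077 kept direction and side of the threshold, 58 lost and 6 gained a call, and 15 changed sign. Members at a few CPM, such as Psma8, Psmc3ip and Psmg3, have SE of 0.15 to 0.28 (log2) in WT cells. Changes of that size, and somewhat larger ones, could be missed at this depth. Psmc3ip changed by 0.29 ± 0.17 in WT cells and was not called in edgeR (adjusted p 0.151).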
